A study of Homo sapiens with 9 samples.

Results

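CLDN3, CLDN4, CLDN7, OCLN, DSP, DSG2, DSC2, PKP2 and PKP3 are the 9 genes described here, taken by symbol from the 20812 genes of a table of amplicon reads scaled to the library total (RPM). CLDN3, CLDN4, CLDN7 and OCLN (4 genes) encode proteins of the tight junction, and DSP, DSG2, DSC2, PKP2 and PKP3 (5 genes) encode parts of the desmosome. They were measured in 9 libraries of SKBR3, a long-established breast cancer line of human origin in which ERBB2 is amplified, made after 48 h with 10 nM siRNA delivered with Lipofectamine RNAiMAX. The control group (3 libraries) received the ON-TARGETplus non-targeting siRNA of Horizon Discovery, and the siRNA 1 and siRNA 2 groups (3 libraries each) received one or the other PVRL4 siRNA from Integrated DNA Technologies, so that supplier and target cannot be told apart. PVRL4 encodes nectin-4, an adhesion molecule whose control by FOS family proteins is the subject of the series, and the siRNA experiment compares the RNA of cells with and without siRNA against it.

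Tight junctions seal the space between neighbouring epithelial cells near their apical side. Claudins are four-pass membrane proteins whose strands form the seal and set which ions cross it, and occludin sits in the same strands. Desmosomes are spot-like junctions that tie the keratin filaments of neighbouring cells together: the desmosomal cadherins bridge the gap between cells, plakophilins gather them into plaques, and desmoplakin links the plaque to the filaments. Nectins act at the adherens junction, which assembles beside both structures.

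None of the 9 genes passed the test with either PVRL4 siRNA. Against control, their log2 changes lay between -0.20 (OCLN, siRNA 1) and 0.23 (DSG2, siRNA 2), and the 95% confidence intervals of all 18 changes lay between -0.61 and 0.51, that is, between 0.654 and 1.42 times the control level. A 2-fold change in either direction lay outside each of these intervals. CLDN3 and DSC2 did differ between libraries of different replicate numbers, by at most 0.62 and 0.43 on the log2 scale between the means of the numbers, a comparison chosen after the values were seen. Of all genes tested, 9.77% passed that comparison.

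Each gene is read from a single short amplicon, so levels of different genes depend on how well each amplicon was copied and are not compared per length. Libraries held 10017130 to 10707777 reads, and 13758 to 13996 genes had at least 1 read. PVRL4 was measured at 9.93, 7.86 and 11.6 RPM in the control libraries, 5.99, 4.36 and 4.67 RPM with siRNA 1 and 3.39, 2.91 and 2.58 RPM with siRNA 2. Every PVRL4 siRNA library was therefore below every control library. PVRL4 fell by 1.44 on the log2 scale with siRNA 2 (limma adjusted p = 0.00224), while the change of -0.84 with siRNA 1 had a limma adjusted p of 0.0601, or 0.0132 with the replicate number as a block. Both falls are understated, because 1 RPM was added to these low values before taking log2. The tissue label was checked on 12 markers of luminal breast epithelium, whose sum was 14684 to 15342 RPM in control libraries, 14279 to 14893 RPM in siRNA 1 libraries and 12025 to 13136 RPM in siRNA 2 libraries. Of the 12, 10 had a mean of at least 1 RPM in each group, and TFAP2B had group means of 0.67 to 0.94 RPM. CDH1, which encodes E-cadherin, had no read in the control and siRNA 2 libraries and at most 0.093 RPM in the siRNA 1 libraries. Lists of basal, mesenchymal and endothelial markers summed to at most 14.7, 10.2 and 10.3 RPM in any library and a list of leukocyte markers to at most 1.55 RPM, with PTPRC, TWIST1, ZEB1 and ZEB2 at 0 reads in all 9 libraries. In the endothelial list, CDH5 had means of 7.38 (control), 7.83 (siRNA 1) and 6.76 RPM (siRNA 2). No other gene of that list reached a mean of 1 RPM in any group. Separate cultures are not named for the replicates in the labels, and a p-value then measures spread between libraries that may be technical. In such bulk RNA, fewer cells with a transcript and less transcript per cell cannot be told apart.

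Stretches of 300 bases around transcript starts (250 bases before to 50 after) are shown for 2 pairs of related genes that share a gene cluster, because 1 member of each pair, CLDN3 and DSC2, passed the comparison between replicate numbers given later and the other did not. The difference within a pair was not tested. The sequences are RefSeq's, in GRCh38.p14, read 5′ to 3′ on the strand of the gene. CLDN3 (chr7:73770221-73770520, minus strand) and CLDN4 (chr7:73830746-73831045, plus strand) are neighbouring protein-coding genes. DSC2 (the first of 2 windows, chr18:31102372-31102671, minus strand) lies between DSC3 and DSC1, and DSG2 (chr18:31497927-31498226, plus strand) lies beside DSG3 in the same cluster of desmosomal cadherins. Capitals mark matches to a loose form of the AP-1 site, which FOS and JUN proteins bind (TGANTCA, with any base at N). They also mark a cAMP response element (TGACGTCA), the E-box bound by SNAI and ZEB repressors (CACCTG) or a grainyhead site (AACCGGTT). Each was searched on both strands.
CLDN3: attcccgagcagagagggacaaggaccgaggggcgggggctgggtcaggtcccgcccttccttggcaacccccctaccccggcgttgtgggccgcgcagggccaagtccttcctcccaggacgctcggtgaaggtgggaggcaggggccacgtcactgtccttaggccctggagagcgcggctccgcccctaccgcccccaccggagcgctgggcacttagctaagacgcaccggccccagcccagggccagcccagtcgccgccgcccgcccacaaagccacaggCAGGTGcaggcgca
CLDN4: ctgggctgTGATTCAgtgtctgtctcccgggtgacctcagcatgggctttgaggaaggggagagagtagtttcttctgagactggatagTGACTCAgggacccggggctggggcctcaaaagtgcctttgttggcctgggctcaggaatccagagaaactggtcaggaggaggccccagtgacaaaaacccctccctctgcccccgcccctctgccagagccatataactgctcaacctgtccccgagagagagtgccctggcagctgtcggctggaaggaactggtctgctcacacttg
DSC2: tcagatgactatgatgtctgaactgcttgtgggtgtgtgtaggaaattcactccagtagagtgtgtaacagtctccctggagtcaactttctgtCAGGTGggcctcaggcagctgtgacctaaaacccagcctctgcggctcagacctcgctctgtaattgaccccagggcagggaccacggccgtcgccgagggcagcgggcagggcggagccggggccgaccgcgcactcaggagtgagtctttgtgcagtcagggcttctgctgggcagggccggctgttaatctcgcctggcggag
DSG2: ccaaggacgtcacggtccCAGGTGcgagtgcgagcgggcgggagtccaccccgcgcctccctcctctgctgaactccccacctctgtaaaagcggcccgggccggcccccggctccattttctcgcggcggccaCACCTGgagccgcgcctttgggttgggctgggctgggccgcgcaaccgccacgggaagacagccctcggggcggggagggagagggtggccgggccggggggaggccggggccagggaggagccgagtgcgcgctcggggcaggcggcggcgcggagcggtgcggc

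Windows were matched for 7 of the 9 genes (10 windows), and PKP2 and PKP3 had none. The CLDN4 window held 2 matches to the loose AP-1 letters (TGATTCA and TGACTCA) and no E-box match. The CLDN3 window held 1 E-box match and no AP-1 match. The DSC2 window shown held 1 E-box match and the DSG2 window 2. Of the other windows, the second of CLDN7 (chr17:7262429-7262728, minus strand) held 5 E-box matches and 1 cAMP response element, DSP held 2 E-box matches, and the windows of OCLN held 1 and 2. The first window of CLDN7 and the second of DSC2 held no match to any of these motifs. No window of a member matched the grainyhead letters. Over all 35116 windows of the same length in the RefSeq table, 7.71% held an AP-1 match, 1.85% a cAMP response element, 20.6% an E-box match and 0.134% a grainyhead match. The G and C share was 72.0% for CLDN3, 59.0% for CLDN4, 60.7% for DSC2 and 76.7% for DSG2, beside a median of 58.7% over all windows. These matches describe letters in a window and not bound sites.

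**Figure D1:**
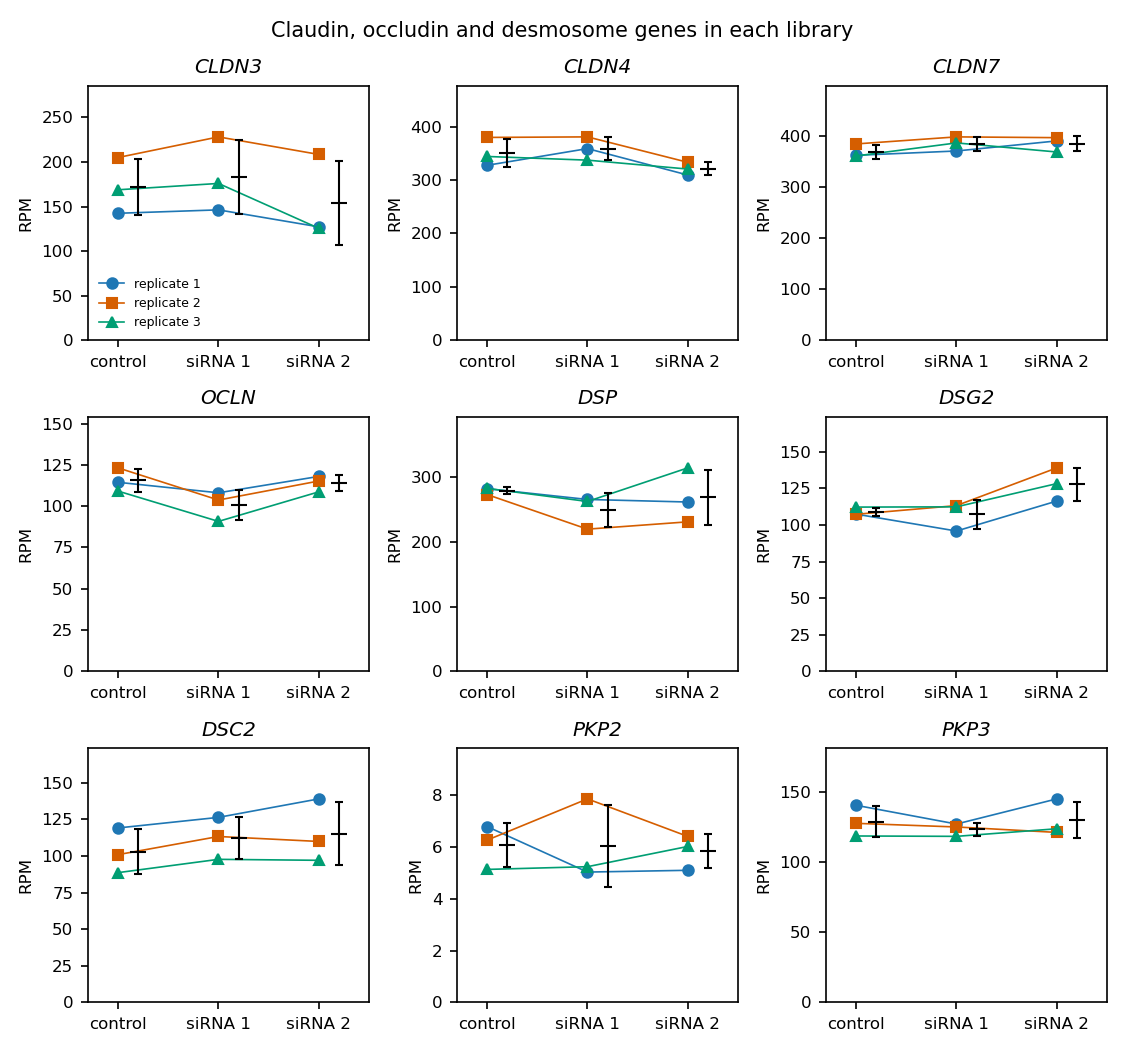
RPM of each of the 9 genes (vertical axes, linear from 0) in the control, siRNA 1 and siRNA 2 libraries, with coloured lines joining libraries of the same replicate number and black marks giving the group mean with its SD (n = 3). Replicate 2 is the highest line for CLDN3 and replicate 1 the highest for DSC2 in each of the 3 groups.

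CLDN4, a barrier-forming claudin, was read at 327, 380 and 344 RPM in the control libraries, 359, 381 and 337 RPM with siRNA 1 and 309, 333 and 320.5 RPM with siRNA 2. The siRNA 1 values overlapped the controls, and the siRNA 2 values were lower than every siRNA 1 value but overlapped the lowest control. The log2 change was 0.035 with siRNA 1 (95% interval -0.16 to 0.23, limma adjusted p = 1.00) and -0.12 with siRNA 2 (-0.32 to 0.075, limma adjusted p = 0.768). Within replicate numbers the siRNA 2 library was below its control in 3 of 3 pairs, with log2 differences of -0.082, -0.19 and -0.10. The share of all genes with 3 pairs of the same sign is not given here. Such agreement is therefore not read as a result, for CLDN4 or for the genes below. Without control replicate 2 the siRNA 2 change was -0.065.

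CLDN3, which is encoded next to CLDN4 and forms strands with it, was read at 142, 205 and 169 RPM under the control siRNA, 146, 228 and 176 RPM with siRNA 1 and 127, 208 and 126 RPM with siRNA 2. The 3 groups overlapped throughout, and the second library was the highest of its group each time. The spread within groups (SD of 31.4, 41.4 and 47.3 RPM around means of 172, 183 and 154 RPM) exceeded any difference between group means. The log2 change was 0.084 with siRNA 1 (-0.34 to 0.51) and -0.19 with siRNA 2 (-0.61 to 0.24), with limma adjusted p values of 1.00 and 0.852. With a library left out the siRNA 2 change ran from -0.43 (without siRNA 2 replicate 2) to -0.054 (without control replicate 2).

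CLDN7, a claudin that binds EPCAM and is also found along the lateral membrane, held the steadiest level of the 9 genes. Its values were 363, 385 and 362 RPM under the control siRNA, 371, 399 and 387 RPM with siRNA 1 and 391, 398 and 369 RPM with siRNA 2. The groups overlapped, although within replicate numbers each siRNA library was above its control, by 0.033 to 0.098 with siRNA 1 and 0.031 to 0.11 with siRNA 2 on the log2 scale. The log2 change was 0.061 with each siRNA (-0.12 to 0.24 for both), with limma adjusted p values of 1.00 and 0.904. Both comparisons use the same 3 control libraries, and the share of all genes with such agreement is not given here. CLDN7 overlaps ELP5 in the RefSeq annotation and has a pseudogene copy, CLDN7P1, as OCLN has OCLNP1 and PKP2 has PKP2P1. Whether an amplicon takes reads of an overlapping gene or copy cannot be told apart here, since amplicon positions and the use of strand are not stated.

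OCLN, which encodes occludin, was read at 114, 123 and 109 RPM under the control siRNA, 108, 104 and 90.8 RPM with siRNA 1 and 118, 115 and 109 RPM with siRNA 2. The siRNA 1 values lay below every control and every siRNA 2 value, with a narrow gap of 108 against 109 RPM, and the siRNA 2 values overlapped the controls. The log2 change with siRNA 1 was -0.20 (-0.41 to 0.020, limma adjusted p = 0.922), and the differences within replicate numbers were -0.082, -0.25 and -0.26. With the replicate number as a block the interval was -0.37 to -0.023, which lies off 0 (limma adjusted p = 0.370). Its unadjusted p was 0.0723 in limma, 0.0285 in limma with the block, 0.0463 in edgeR and 0.0386 in DESeq2. The adjusted p was 0.768 in edgeR and 0.751 in DESeq2. Without siRNA 1 replicate 3 the change was -0.12. With siRNA 2 it was -0.019 (-0.24 to 0.20, limma adjusted p = 0.977), a value that turned positive under other scalings of the libraries. The siRNA 1 libraries also held more RNA of a 10-gene interferon-response list, which summed to 4795, 596 and 1993 RPM against 30.3 to 40.4 RPM in the control libraries and 39.4 to 106 RPM in the siRNA 2 libraries. The part of that response in the OCLN values was not tested.

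DSP encodes desmoplakin, the plaque protein that holds keratin filaments. It was read at 283, 274 and 283 RPM under the control siRNA, 266, 220.0 and 263 RPM with siRNA 1 and 262, 231 and 315 RPM with siRNA 2. The control values were close together (SD 5.36 RPM), every siRNA 1 value lay below them, and the siRNA 2 values lay on both sides. The log2 change was -0.17 with siRNA 1 (-0.42 to 0.081, limma adjusted p = 1.00) and -0.066 with siRNA 2 (-0.32 to 0.18, limma adjusted p = 0.929). Without siRNA 1 replicate 2 the siRNA 1 change was -0.081. DSP was read 2763 times per library on average, for which counting alone gives a coefficient of variation of 1.90%, beside 1.92%, 10.3% and 15.7% measured within the 3 groups.

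DSG2, the desmoglein of simple epithelia, was read at 107, 107 and 112 RPM under the control siRNA, 95.9, 113 and 112 RPM with siRNA 1 and 116, 139 and 128 RPM with siRNA 2. Every siRNA 2 value lay above every value of both other groups, and the siRNA 1 values overlapped the controls. The group means were 109 ± 2.81, 107 ± 9.80 and 128 ± 11.3 RPM (SD, n = 3 each). The log2 change with siRNA 2 was 0.23 against control (0.0015 to 0.45, limma adjusted p = 0.527) and 0.25 against siRNA 1 (0.029 to 0.48, limma adjusted p = 0.258), so it did not pass the adjusted threshold of 0.05 in either comparison. The 2 comparisons share the siRNA 2 libraries. The difference from control was positive in 3 of 3 replicate numbers (0.11, 0.37 and 0.19) and ranged from 0.16 to 0.29 with a library left out. edgeR on reads with the replicate block gave an adjusted p of 0.0519 against siRNA 1, which was the smallest adjusted p of any of the 9 genes in these comparisons. The luminal marker sum given above lay below that of the other groups in the same libraries, and its part in the DSG2 values was not tested. From control to siRNA 2, mean levels went from 5878 to 4977 RPM for KRT19, from 2805 to 2279 RPM for KRT7 and from 1987 to 1525 RPM for KRT8, while those of EPCAM were 477 and 499 RPM and those of ERBB3 153 and 150.4 RPM.

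DSC2, the desmocollin of simple epithelia, was read at 119, 101 and 88.6 RPM under the control siRNA, 126, 113 and 97.7 RPM with siRNA 1 and 139, 110 and 97.0 RPM with siRNA 2. The 3 groups overlapped, and the first library was the highest and the third the lowest of each group. The log2 change was 0.13 with siRNA 1 (-0.18 to 0.44, limma adjusted p = 1.00) and 0.16 with siRNA 2 (-0.16 to 0.47, limma adjusted p = 0.824). Within replicate numbers the siRNA library was above its control in 3 of 3 pairs, by 0.084 to 0.17 with siRNA 1 and by 0.12 to 0.22 with siRNA 2. The pairs of both siRNAs use the same 3 control libraries, and the share of all genes with such agreement is not given here. With a library left out the change ran from 0.028 (without control replicate 3) to 0.24 (without control replicate 1) with siRNA 1, and from 0.016 (without siRNA 2 replicate 1) to 0.27 (without siRNA 2 replicate 3) with siRNA 2. With the replicate number as a block the intervals narrowed to -0.042 to 0.30 and -0.014 to 0.33, and neither change passed (limma adjusted p = 0.642 and 0.358). DSC2 is overlapped by DSCAS, DSG2 by DSG2-AS1 and DSP by DSP-AS1 in the RefSeq annotation.

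The plakophilins anchor the desmosomal cadherins to desmoplakin. PKP3, which is found in most epithelial desmosomes, was read at 141, 128 and 119 RPM under the control siRNA, 127, 125 and 119 RPM with siRNA 1 and 145, 121 and 124 RPM with siRNA 2, and the 3 groups overlapped. Its log2 change was -0.059 with siRNA 1 (-0.28 to 0.17) and 0.011 with siRNA 2 (-0.21 to 0.23), with limma adjusted p values of 1.00 and 0.983. PKP2, better known from heart muscle, was the lowest of the 9 genes at 6.78, 6.25 and 5.13 RPM under the control siRNA, 5.02, 7.84 and 5.23 RPM with siRNA 1 and 5.09, 6.40 and 6.01 RPM with siRNA 2. That is 51 to 81 reads per library, for which counting alone gives a coefficient of variation of 12.7%, against 1.59% to 2.96% for the other 8 genes. Its log2 change was -0.019 with siRNA 1 (-0.43 to 0.39) and -0.043 with siRNA 2 (-0.46 to 0.37). Both changes were smaller than their SE of 0.193 in limma. They were also smaller than the lowest SE of the 9 genes, 0.0852 for CLDN7. A difference of that size was not detectable for any of the 9 with 3 libraries per group.

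**Figure D2:**
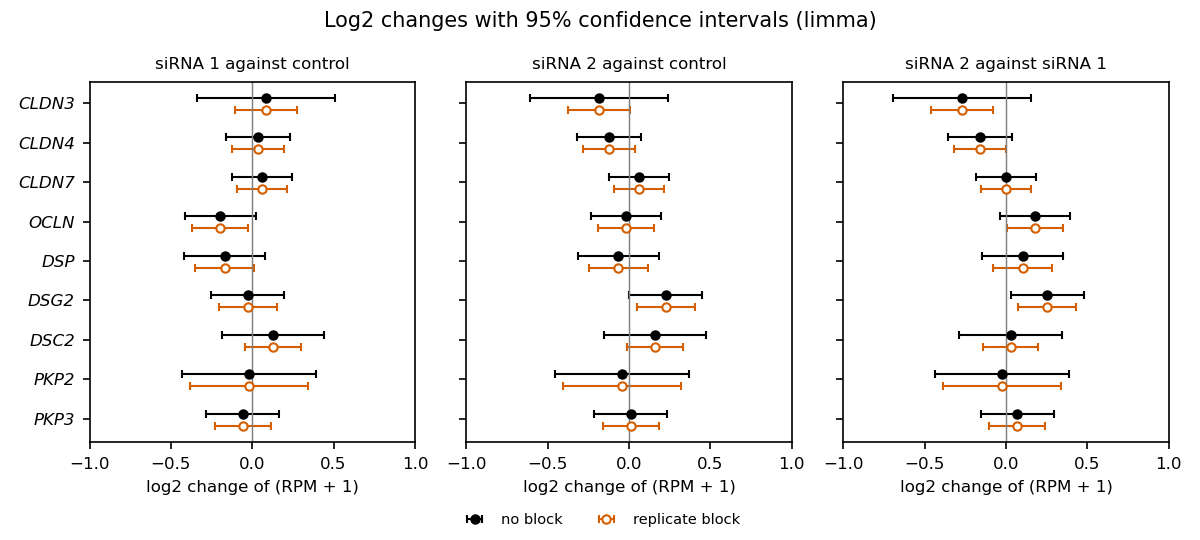
Log2 changes of (RPM + 1) on the horizontal axes with 95% confidence intervals for the 9 genes, without (black) and with (orange) the replicate number as a block, in the 3 comparisons. Without the block, the interval of DSG2 with siRNA 2 is the only one that lies off 0 (0.0015 to 0.45 against control and 0.029 to 0.48 against siRNA 1). With the block, those of OCLN with siRNA 1 and of CLDN3, CLDN4 and OCLN between the siRNAs lie off 0 as well. None of the changes passed the adjusted threshold with or without it.

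Counted together, 0 of the 9 genes passed with siRNA 1 in the limma fit, where 0.851% of the 11158 genes tested passed. Likewise 0 of 9 passed with siRNA 2 (0.681% of all genes tested) and 0 of 9 between siRNA 2 and siRNA 1 (3.05%). Unadjusted limma p values without the block were under 0.05 for 0 of the 9 with siRNA 1 (6.04% of all genes). They were so for 1 with siRNA 2 (DSG2, 9.42%) and 1 between the siRNAs (DSG2, 15.1%). With the block, unadjusted limma p values under 0.05 were those of OCLN with siRNA 1 (0.0285) and DSG2 with siRNA 2 (0.0163). Between the siRNAs they were those of CLDN3 (0.0083), CLDN4 (0.049), OCLN (0.045) and DSG2 (0.0082). The share of all genes under 0.05 with the block is not given here. In the same order of comparisons, 0 of 9 passed in edgeR (0.968%, 0.52% and 3.08% of all genes), in DESeq2 (1.44%, 1.42% and 4.7%) and in limma with the replicate block (1.85%, 3.41% and 9.33%). With siRNA 1, 2 of the 9 genes (OCLN and DSP) had every library below every control, against 5.59% of all genes, and none had every library above (6.4% of all genes). With siRNA 2, 1 gene (DSG2) had every library above every control, against 4.99% of all genes, and none had every library below (8.95%). Between the siRNAs, OCLN and DSG2 were higher without overlap with siRNA 2 (7.04% of all genes) and CLDN4 was lower (12.6%). The median log2 change of the 9 genes was -0.019 with siRNA 1 and -0.019 with siRNA 2, beside 0.014 and -0.022 over all genes tested. By role, the claudins and OCLN had medians of 0.048 and -0.072 and the desmosome genes -0.028 and 0.011, with 4 of 9 changes positive and 5 negative with each siRNA. The RPM of the 9 genes summed to 1588 to 1709 in the 9 libraries.

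Against each other, siRNA 2 and siRNA 1 gave log2 differences of -0.27 for CLDN3 (-0.70 to 0.15), -0.16 for CLDN4 (-0.36 to 0.039), 0.18 for OCLN (-0.039 to 0.39) and 0.10 for DSP (-0.15 to 0.35). CLDN7, DSC2, PKP2 and PKP3 differed by 0.00045, 0.028, -0.024 and 0.069. With the replicate block the intervals lay off 0 for CLDN3 (-0.46 to -0.080), CLDN4 (-0.32 to -0.00064), OCLN (0.0044 to 0.35) and DSG2 (0.075 to 0.43). None of these passed in this comparison. The limma adjusted p with the block was 0.0728 for CLDN3 and for DSG2, 0.210 for CLDN4 and 0.199 for OCLN.

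For CLDN3 and DSC2, the differences between replicate numbers were larger than those between siRNA groups. The comparison was chosen after the values were seen. The labels do not say what a replicate number stands for. CLDN3 was read at 127 to 146 RPM in the 3 libraries numbered 1, 205 to 228 RPM in those numbered 2 and 126 to 176 RPM in those numbered 3. The libraries numbered 2 did not overlap the others. DSC2 was read at 119 to 139 RPM in number 1, 101 to 113 RPM in number 2 and 88.6 to 97.7 RPM in number 3, and none of these ranges overlapped. In a limma F test of the replicate number with the siRNA group in the model, 2 of the 9 genes passed (CLDN3, adjusted p = 0.00134, and DSC2, adjusted p = 0.00965), where 9.77% of all genes tested passed. A count of 2 among 9 genes is therefore not read as a trait of the set. CLDN3 was 0.62 higher in number 2 than in number 1 on the log2 scale, and number 3 minus number 2 was -0.46. For DSC2, number 3 minus number 1 was -0.43.

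Both genes passed in edgeR on reads (adjusted p = 0.00177 and 0.0177) and with any 1 of the 9 libraries left out (limma adjusted p of 0.000274 to 0.0200 for CLDN3 and 0.0160 to 0.0454 for DSC2). Without a filter on low values neither passed (limma adjusted p = 0.142 and 0.0735), and without a trend in the prior variance CLDN3 passed (0.0457) and DSC2 did not (0.0708). The other 7 genes had limma adjusted p values of 0.135 (DSP) to 0.662 (CLDN7). The partners shown above were among them, CLDN4 at 0.344 and DSG2 at 0.306. The ratio of CLDN3 to CLDN4 reads was 0.435, 0.408 and 0.412 in the libraries numbered 1, 0.540, 0.599 and 0.626 in number 2 and 0.491, 0.522 and 0.392 in number 3. The ratio of DSC2 to DSG2 was 1.11, 1.32 and 1.19 in number 1, 0.940, 1.00 and 0.790 in number 2 and 0.789, 0.869 and 0.756 in number 3. Since amplicons differ in efficiency, only the movement of these ratios between libraries can be read. The pairs were chosen by the test of the replicate number on the same values, so the ratios are not separate support for it.

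**Figure D3:**
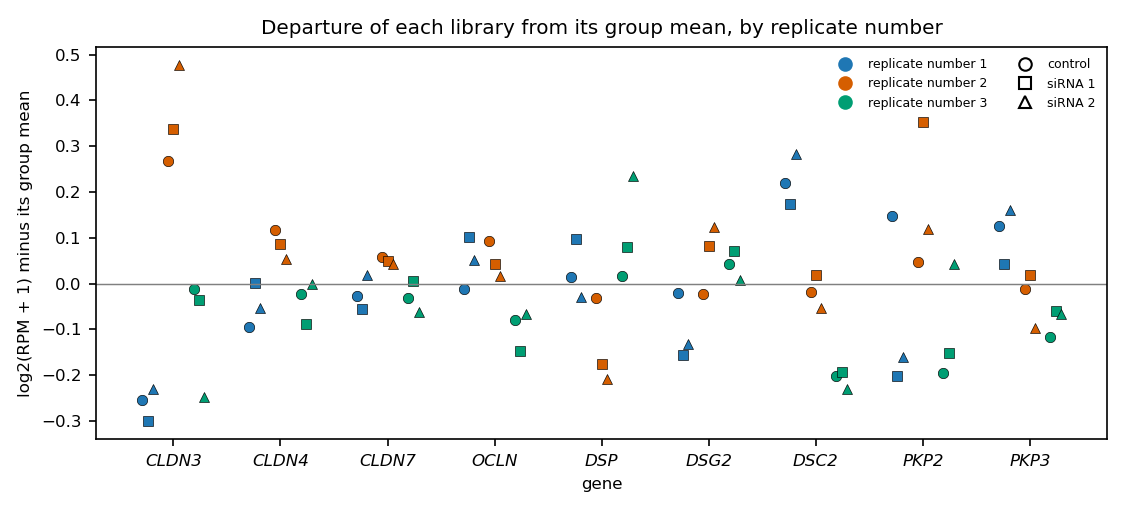
Departure of each library from the mean of its siRNA group, as log2(RPM + 1) on the vertical axis, for the 9 genes, with colour giving the replicate number and shape the siRNA group. For CLDN3 the 3 libraries numbered 2 stand above the rest, and for DSC2 the 3 numbers are separate, while the symbols of CLDN7 stay near 0.

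The SD of log2(RPM + 1) that was left within siRNA groups differed several-fold between members. It was 0.338 for CLDN3 and 0.221 for DSC2, and 0.122 and 0.0481 once the replicate number was in the model. For CLDN7 it was 0.0528 and for CLDN4 0.0860. Among the 3387 genes with a mean of 50 to 500 RPM, whose median was 0.139, CLDN3 lay at the 97.6th percentile, DSC2 at the 86.4th, CLDN4 at the 12.6th and CLDN7 at the 1.51st. Counting alone would give coefficients of variation of 2.38% for CLDN3 and 1.59% for CLDN7.

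The other genes of the junctions were read from 7 lists with 95 entries, of which 92 were in the table and 62 were tested. With siRNA 1, 1 of the 62 passed in limma, and it was lower, where 0.851% of all genes tested passed. PRKCI, an atypical protein kinase C of the apical polarity complex that shapes tight junctions, fell from 226 ± 14.9 to 151 ± 8.98 RPM (SD, n = 3 each), a log2 change of -0.58 (limma adjusted p = 0.0121). The call was lost without control replicate 1 (0.0909), control replicate 3 (0.0829) or siRNA 1 replicate 1 (0.0685), without a filter (0.230) and without a trend (0.0863), while the log2 change stayed between -0.63 and -0.53. Among strand genes CLDN12 (0.43) and CXADR (-0.27), among other desmosome genes PKP1 (-0.28) and EVPL (-0.17), and among hemidesmosome genes DST (-0.34) and PLEC (-0.41) had the smallest p values of their lists without passing. For simple-epithelial keratins these were KRT19 (-0.11) and KRT23 (0.21), for partners and proteases ST14 (0.16) and SPINT1 (0.11), and for transcription and splicing factors GRHL3 (0.38) and KLF4 (0.31). The median of the 62 genes was -0.0070, beside 0.014 over all genes.

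With siRNA 2, 1 of the 62 passed in limma and was lower, where 0.681% of all genes tested passed. With the replicate number as a block 9 passed and were lower, where 3.41% of all genes tested passed, 51 of them higher and 329 lower. GRHL1, a grainyhead-like transcription factor that controls desmosomal cadherin genes in the skin, fell from 141 ± 4.51 to 90.1 ± 9.86 RPM, a log2 change of -0.64 (limma adjusted p = 0.0171). That call was lost without control replicate 1 (0.0665), 2 (0.0800) or 3 (0.0847) or siRNA 2 replicate 1 (0.0673), without a filter (0.132) and without a trend (0.0795), while the change stayed between -0.71 and -0.55. The genes that fell with the block, beside GRHL1, were the transcription factors EHF (-0.59) and TFAP2A (-0.33), the keratin KRT8 (-0.38), the tight junction genes CGNL1 (-0.56), F11R (-0.32), TJP1 (-0.46) and MARVELD3 (-0.75), and DST (-0.49), which encodes a hemidesmosome linker. Their limma adjusted p values with the block lay between 0.00145 and 0.0412. TJP1 encodes ZO-1, the scaffold under claudins and occludin, F11R encodes the adhesion molecule JAM-A, and MARVELD3 is a relative of occludin. Without passing, CGN (-0.47), PKP4 (-0.38), PKP1 (0.21), ITGB4 (-0.44), KRT7 (-0.31), ADAM10 (0.20) and SPINT1 (-0.15) were the others with the smallest p values of their lists. The median of the 62 genes was -0.069, beside -0.022 over all genes, and that of the 9 claudin, occludin and desmosome genes was -0.019. KRT8 is also 1 of the 12 luminal markers whose sum was lower with siRNA 2.

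**Figure D4:**
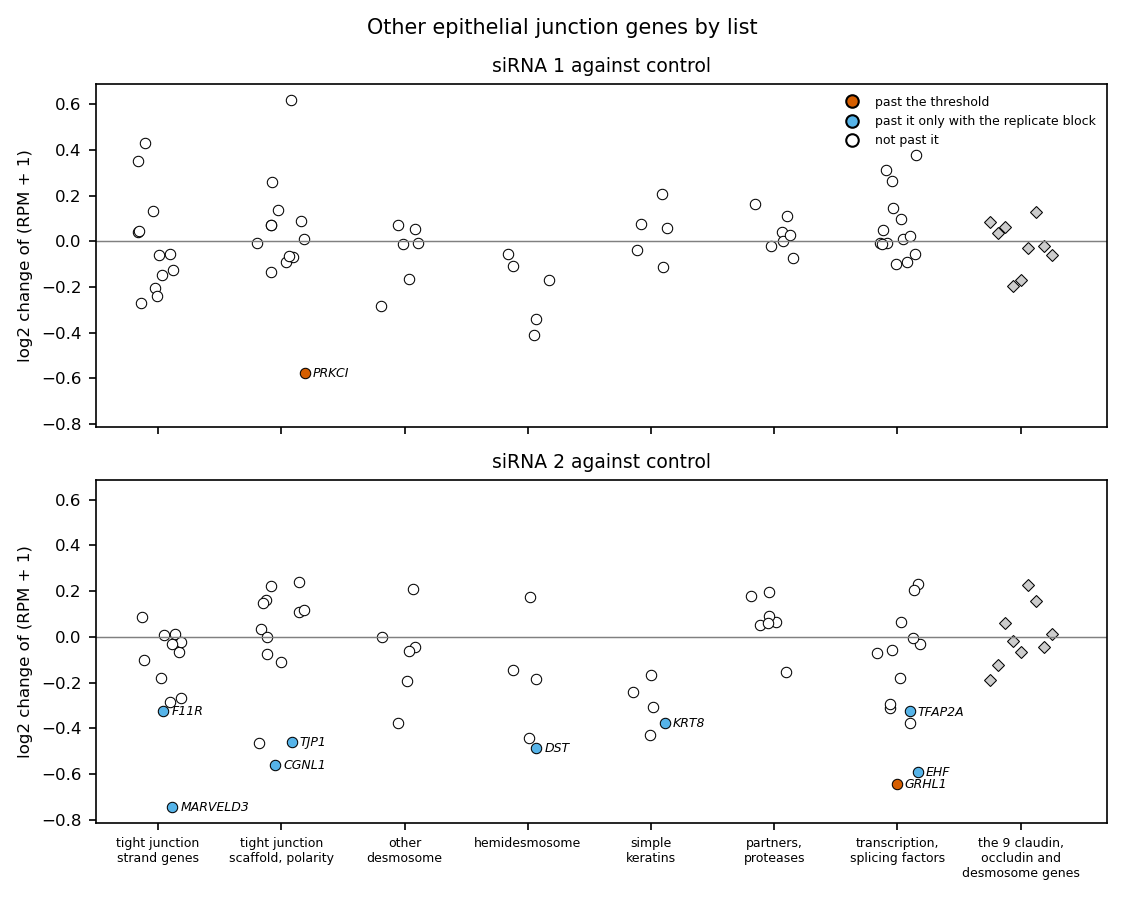
Log2 change of (RPM + 1) on the vertical axes for each tested gene of the 7 other junction lists and, as grey diamonds, for the 9 claudin, occludin and desmosome genes, with siRNA 1 above and siRNA 2 below. PRKCI (-0.58, siRNA 1) and GRHL1 (-0.64, siRNA 2) passed the threshold without the block, blue symbols passed with it, and the diamonds lie between -0.20 and 0.23.

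Between siRNA 2 and siRNA 1, 3 of the 62 passed in limma (3.05% of all genes tested): PRKCI was higher with siRNA 2 (0.68), and GRHL1 (-0.55) and EHF (-0.54) were lower. With the block 2 were higher and 15 lower, where 9.33% of all genes passed. By replicate number, 11 of the 62 passed the limma F test, where 9.77% of all genes tested passed. They were LSR, TJP1, INADL, PRKCZ, KRT23, PRSS8, SPINT2, KLF5, ELF3, OVOL1 and OVOL2.

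OCLN and DSG2 had the smallest p of the 9 genes against control with siRNA 1 and siRNA 2. Among the 7933 genes averaging 10 RPM or more, those whose log2(RPM + 1) was most like OCLN over the 9 libraries were ZMYND8 (Pearson r = 0.957), CSNK2A2 (0.951) and EHD1 (0.926). For DSG2 they were UBE2H (0.950), FAM18B1 (0.939) and SH3YL1 (0.937). The 9 libraries share their groups and replicate numbers, and these were the highest values of a search over all those genes, so they describe the libraries only.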

How the data were processed

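RNA of 9 SKBR3 libraries was measured by Ion AmpliSeq transcriptome sequencing from 100 ng of total RNA, per the labels' protocols. The authors deposited RPM values (reads scaled to the library total) on hg19, per the submitters' processing notes. Aligner and counter: not given in the sources used here. In each library 100% of values were whole multiples of 1 read within 0.1 read, giving the reads used by edgeR 4.0.16 and DESeq2 1.42.0. edgeR passed 108, 58 and 344 genes and DESeq2 161, 159 and 524 in the 3 comparisons. Amplicon reads carry no molecular identifiers, so counting errors cover counting only.

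Tests used limma 3.58.1 in R 4.3.3 on log2(RPM + 1) with a trended prior, over 11158 genes that averaged 1 RPM or more. All 9 libraries were fitted in 3 groups, two-sided, with Benjamini-Hochberg adjustment over all genes tested and a threshold of 0.05. The added 1 RPM understates changes of low genes such as PKP2 and PVRL4. The fits were tested on simulated counts with a single fixed spread, no effect of replicate number and changes larger than those of the 9 genes. That check covers the code and not the power to find changes of the size seen here. Groups and replicate numbers come from the sample titles. The numbers pair the libraries: deviations from group means correlated at 0.252 to 0.417 in the 9 pairs across groups that share a number, and at -0.340 to -0.0275 in the other 18. Deviations within a group sum to 0 for each gene. Positive values in the 9 pairs therefore force negative ones among the 18, which are not separate support. The 9 genes, the lists and the naming rule were chosen with earlier results of these data known, and 1 gene of the lists is not reported here. The rule names the 9 genes and PVRL4. Of each list it names up to 4 genes past the threshold in a contrast, or up to 2 with the smallest p where none passed, and for likeness 3 genes for the member with the smallest p. Genes that passed with the block, or by replicate number, were named after their values were seen. Alternatives were pseudocounts of 0.1 and 5, no filter, a filter at 5 RPM, median-of-ratios and TMM scaling, the block, only the 6 libraries compared, no trend, edgeR, DESeq2, edgeR with the block and each of the 9 libraries left out.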

Additional observations from a re-analysis of the deposited data

Results flagged for a closer look

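The responses of 3 junction genes to the 2 PVRL4 siRNAs differed by the direct comparison of the siRNA groups in limma. PRKCI was higher with siRNA 2 than with siRNA 1 by 0.6831 (log2, SE 0.102, adjusted p = 0.00238), with 244 ± 23.7 against 151 ± 8.98 RPM (SD, n = 3 each). GRHL1 differed by -0.5535 (SE 0.109, adjusted p = 0.0146), and EHF by -0.5353 (SE 0.126, adjusted p = 0.0332). With a library left out, limma's adjusted p reached at most 0.0137 for PRKCI, but with no filter on low values its call was lost (0.0646). For GRHL1 the call was lost with no filter (0.124), with no trend (0.0538) and without siRNA 1 replicate 1 (0.0657), siRNA 1 replicate 3 (0.0631) or siRNA 2 replicate 1 (0.0573). For EHF it was lost with no filter (0.134), with no trend (0.0631), with only the 6 libraries compared (0.0729) and without control replicate 3 (0.0508), siRNA 1 replicate 2 (0.144) or 3 (0.109), or siRNA 2 replicate 1 (0.0907) or 3 (0.106). None of the 9 claudin, occludin and desmosome genes passed in this comparison by limma, edgeR or DESeq2. DSG2 had an unadjusted p under 0.05 in each of these (adjusted p of 0.258 in limma, 0.211 in edgeR and 0.161 in DESeq2). OCLN had one in edgeR (0.0400, adjusted 0.294) and DESeq2 (0.0304, adjusted 0.255) but not in limma without the block (0.101). In limma 15.1% of all genes tested had an unadjusted p under 0.05, and the shares in edgeR and DESeq2 are not given here.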

How the results depend on the processing

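In 567 recomputed log2 changes of the 9 genes (27 changes, 21 alternatives each), 0 passed the threshold. The sign held under every alternative for 13 changes and turned in 35 values of the other 14. Under median-of-ratios scaling, TMM scaling, edgeR, DESeq2 and edgeR with the block, the siRNA 2 change of OCLN turned to 0.011, 0.0023, 0.0076, 0.010 and 0.0082. Between the siRNAs, PKP2 turned to 0.017, 0.0080, 0.00056 and 0.0020 under the same settings except edgeR alone. With a library left out, siRNA 1 changes ranged from -0.085 to 0.23 for CLDN3, -0.012 to 0.094 for CLDN4, -0.069 to 0.050 for DSG2, -0.20 to 0.081 for PKP2 and -0.12 to 0.0047 for PKP3. siRNA 2 changes ranged from -0.059 to 0.027 for OCLN, -0.18 to 0.038 for DSP, -0.14 to 0.037 for PKP2 and -0.070 to 0.074 for PKP3. Differences between the siRNAs ranged from -0.027 to 0.032 for CLDN7, -0.015 to 0.21 for DSP, -0.11 to 0.14 for DSC2, -0.12 to 0.15 for PKP2 and -0.012 to 0.12 for PKP3. The causes were not tested.

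Counts of all genes passed, for siRNA 1, siRNA 2 and between the siRNAs, were 95, 76 and 340. They were 3, 12 and 12 with no filter, 49, 17 and 192 with no trend, 161, 159 and 524 in DESeq2 and, between the siRNAs, 212 with the 6 libraries compared. With the replicate block they were 206, 380 and 1041, or 219, 320 and 1015 in edgeR. Left-out libraries gave 46 to 137, 18 to 70 and 153 to 306. For the other junction genes (1, 1 and 3) they were 0, 0 and 0 with no filter and 0, 0 and 1 with no trend. With siRNA 2 they were 2 with a pseudocount of 0.1, a filter at 5 RPM, TMM or DESeq2, and between the siRNAs DESeq2 gave 5. With the block they were 9 with siRNA 2 and 17 between the siRNAs, or 6 and 17 in edgeR, and the block changed no call of the 9 genes. Left-out libraries gave 0 to 1, 0 to 2 and 1 to 3. By replicate number, the 9 genes' count of 2 was 0 with no filter, 1 with no trend and 2 with any library left out, and the count over all genes (1090) was 55, 316 and 609 to 815.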
